A study of Mus musculus with 16 samples.

Results

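The genes described here are 10 components and markers of the ON-bipolar glutamate cascade of the mouse retina: Grm6, Trpm1, Nyx, Gpr179, Rgs7, Rgs11, Gnao1, Pcp2, Cabp5 and Vsx1. They were chosen by name, with earlier results of these data known, so shares of the members set beside shares of all genes are a description. Every non-control probe whose RefSeq accession belongs to one of them was followed, which gave 14 of the 55681 non-control probes and 10 of the 20660 genes named on the array. All 10 were among the 19022 genes tested, and all 14 probes were well above background on all 16 arrays, with none saturated. RNA came from the retinas and retinal pigmented epithelium (RPE) of nm3342 mutant mice, which the study's title presents as a possible model of serous retinal detachment, and of wild-type mice, all labelled as male and on a C57Bl/6J background. There were 4 arrays each of mutants at 1 year, wild types at 1 year, mutants at 1 month and wild types at 1 month. The labels name neither the gene that the mutation changes nor the cell types it acts in, so it could not be checked on the arrays. Each array was taken as 1 sample, and p-values measure the spread between these samples.

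ON-bipolar cells respond to light through the metabotropic glutamate receptor mGluR6, which Grm6 encodes. In darkness, glutamate from photoreceptors keeps mGluR6 active, its G protein Go is engaged, and the cation channel TRPM1 stays closed. Light lowers glutamate, RGS proteins end the Go signal, TRPM1 opens and the cell depolarises. Loss of the receptor, the channel or their partners nyctalopin and GPR179 is a known cause of congenital stationary night blindness in humans.

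The promoter windows of the genes on which the results turn are shown first: Grm6 and Nyx, the members that were higher in the mutant at 1 month, and both listed starts of Trpm1, whose probes gave different patterns. Each line is the 250 bases before the start, 5′ to 3′ on the gene's strand, from RefSeq with build GRCm38.p6.
Grm6, chr11:50850435-50850684, plus strand: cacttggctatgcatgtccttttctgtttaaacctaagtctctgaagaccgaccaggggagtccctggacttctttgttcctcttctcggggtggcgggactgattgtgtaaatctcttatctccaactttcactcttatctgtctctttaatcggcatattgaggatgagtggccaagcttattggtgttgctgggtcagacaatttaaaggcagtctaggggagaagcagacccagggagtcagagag
Nyx, chrX:13460840-13461089, plus strand: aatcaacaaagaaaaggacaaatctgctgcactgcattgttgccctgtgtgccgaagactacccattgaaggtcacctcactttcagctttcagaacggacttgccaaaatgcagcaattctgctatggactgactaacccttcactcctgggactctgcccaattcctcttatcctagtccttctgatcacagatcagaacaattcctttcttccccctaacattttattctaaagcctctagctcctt
Trpm1 first start, chr7:64153585-64153834, plus strand: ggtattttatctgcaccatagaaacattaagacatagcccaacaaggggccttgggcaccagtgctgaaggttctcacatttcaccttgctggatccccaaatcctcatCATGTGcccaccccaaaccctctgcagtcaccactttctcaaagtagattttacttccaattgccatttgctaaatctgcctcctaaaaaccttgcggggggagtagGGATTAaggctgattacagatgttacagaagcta
Trpm1 second start, chr7:64185209-64185458, plus strand: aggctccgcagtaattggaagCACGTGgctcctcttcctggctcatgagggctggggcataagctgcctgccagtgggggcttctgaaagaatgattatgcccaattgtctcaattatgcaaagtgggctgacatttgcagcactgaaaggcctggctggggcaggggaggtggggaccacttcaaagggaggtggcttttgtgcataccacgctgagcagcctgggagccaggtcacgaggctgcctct
Capitals mark matches, on either strand, to 4 short motifs: TAATCC, the core site of the photoreceptor and bipolar factors CRX and OTX2; TAATTA, a homeodomain site; and the E-boxes CATGTG and CACGTG, of the kind bound by the pigment cell factor MITF. The windows of Grm6 and Nyx held none of these letters, which says nothing of the factors themselves. The first Trpm1 window held TAATCC, as its reverse complement GGATTA, at 34 to 29 bases before the start and CATGTG at 141 to 136 bases before it, with no overlap between the matches. The second, 31.6 kb further along the gene, held CACGTG at 229 to 224 bases before its start. Of 32851 mouse promoter windows of this length, TAATCC stood in 6.25%, TAATTA in 4.84%, CATGTG in 12.3% and CACGTG in 6.02%. Among the 13 windows listed for 9 of the members, TAATCC was found in 1 each of Trpm1 and Cabp5, and TAATTA in 1 of Pcp2. CATGTG stood in 1 window each of Trpm1, Gnao1 and Pcp2, and CACGTG in 1 each of Trpm1 and Rgs7. Rgs11 is named only. Which start each Trpm1 probe reports was not analysed here.

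Levels are log2 signals relative to the 75th percentile of their own array, so that 0 is that percentile, and changes are differences of such levels. Between 82.1% and 89.6% of probes were well above background on each array, and arrays of 1 group correlated at 0.98 to 0.99 over the genes tested. The number of arrays, 4 to a group, limits the precision of every value. The sex-linked genes of 3 arrays went against the male label. On 1-month mutant replicates 2 and 3 and 1-year mutant replicate 1, Xist lay between -0.38 and -0.03 and Ddx3y between -8.47 and -8.12, whereas on the other 13 arrays Xist lay between -8.61 and -5.68 and Ddx3y between 0.69 and 1.19. No wild-type array had this female pattern, so the calls between genotypes are also given without these arrays. In whole tissue, fewer cells of a type and less RNA per cell cannot be told apart.

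At 1 month, 2 of the 10 genes were higher in mutant than in wild-type tissue and none was lower: Grm6, the receptor, by 1.45-fold and Nyx, which encodes its partner nyctalopin, by 1.45-fold. Of all genes tested, 2.72% passed the threshold (limma, Benjamini-Hochberg adjusted p under 0.05) and 2.03% passed it as higher. The other 8 members had log2 changes between -0.01 and 0.14. The members' median change was 0.08, against 0.02 over all genes, and 9 of the 10 estimates were positive, as were 54.0% of all genes. Without the 3 arrays of female pattern 0 of 10 members passed, where 0.699% of all genes did, with Grm6 at 0.42 (adjusted p = 0.23) and Nyx at 0.40 (adjusted p = 0.319). With the pattern as a covariate Grm6 was at 0.46 (adjusted p = 0.067) and Nyx at 0.38 (adjusted p = 0.154). The direction count moved too: without these arrays 6 of 10 estimates were positive, with Gpr179, Rgs7, Cabp5 and Vsx1 negative and a median of 0.04, and with the covariate 5 of 10 were, with a median of 0.01. On slide 1 alone 5 of 10 were positive, with a median of 0.02, and on slide 2 alone 10 of 10, with a median of 0.13. On slide 2 genotype and array row cannot be told apart, since all its mutant arrays lay in row 2 and all its wild-type arrays in row 1.

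At 1 year no member passed the threshold in limma, which 0.857% of all genes did (0.61% as higher), while 6 of 10 had an unadjusted p under 0.05 (Grm6, Nyx, Gpr179, Rgs11, Pcp2 and Vsx1), as had 11.4% of all genes. The estimates for 9 of the 10 members were positive, as were 47.2% of all genes, and their median was 0.34 against -0.01 over all genes. For Grm6, Gpr179, Rgs11 and Pcp2 every mutant array lay above every wild-type array, a pattern that 4.39% of all genes showed in that direction. Replicate 2 of the 1-year mutants had the lowest level of its group for each of the 10 members, by the brightest probe. Leaving out this array put Grm6 (log2 change 0.49, adjusted p = 0.0438) and Rgs11 (0.42, adjusted p = 0.0207) past the threshold, which 138 of 19022 genes passed in that fit. It was the only 1 of the 16 fits leaving out 1 array in which either passed. In the others the limma adjusted p reached 0.263 for Grm6 and 0.227 for Rgs11. Without the 3 arrays of female pattern, of which 1 is a 1-year mutant, 8 of 10 estimates were positive with a median of 0.28, and Grm6 was at 0.39, Nyx at 0.25, Gpr179 at 0.34, Rgs11 at 0.32, Pcp2 at 0.31 and Vsx1 at 0.41. On slide 1 alone 8 of 10 were positive with a median of 0.21, and on slide 2 alone 9 of 10 with a median of 0.36. Rod photoreceptor transcripts lay the other way at this age: 9 of 10 listed rod genes had negative estimates, with a median of -0.28, and Gnat1, the rod transducin subunit, had a change of -0.33 ± 0.06 (SE, adjusted p = 0.0246), which without the 3 arrays was -0.34 and did not pass (adjusted p = 0.106). All 10 rod genes were well above background on all 16 arrays, and their mean level ran from 6.02 to 6.21 on 1-year mutant arrays and from 6.33 to 6.43 on 1-year wild-type arrays. Signals are relative to the whole of an array's RNA, and the part of the rod transcripts in the members' estimates was not tested.

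**Figure D1:**
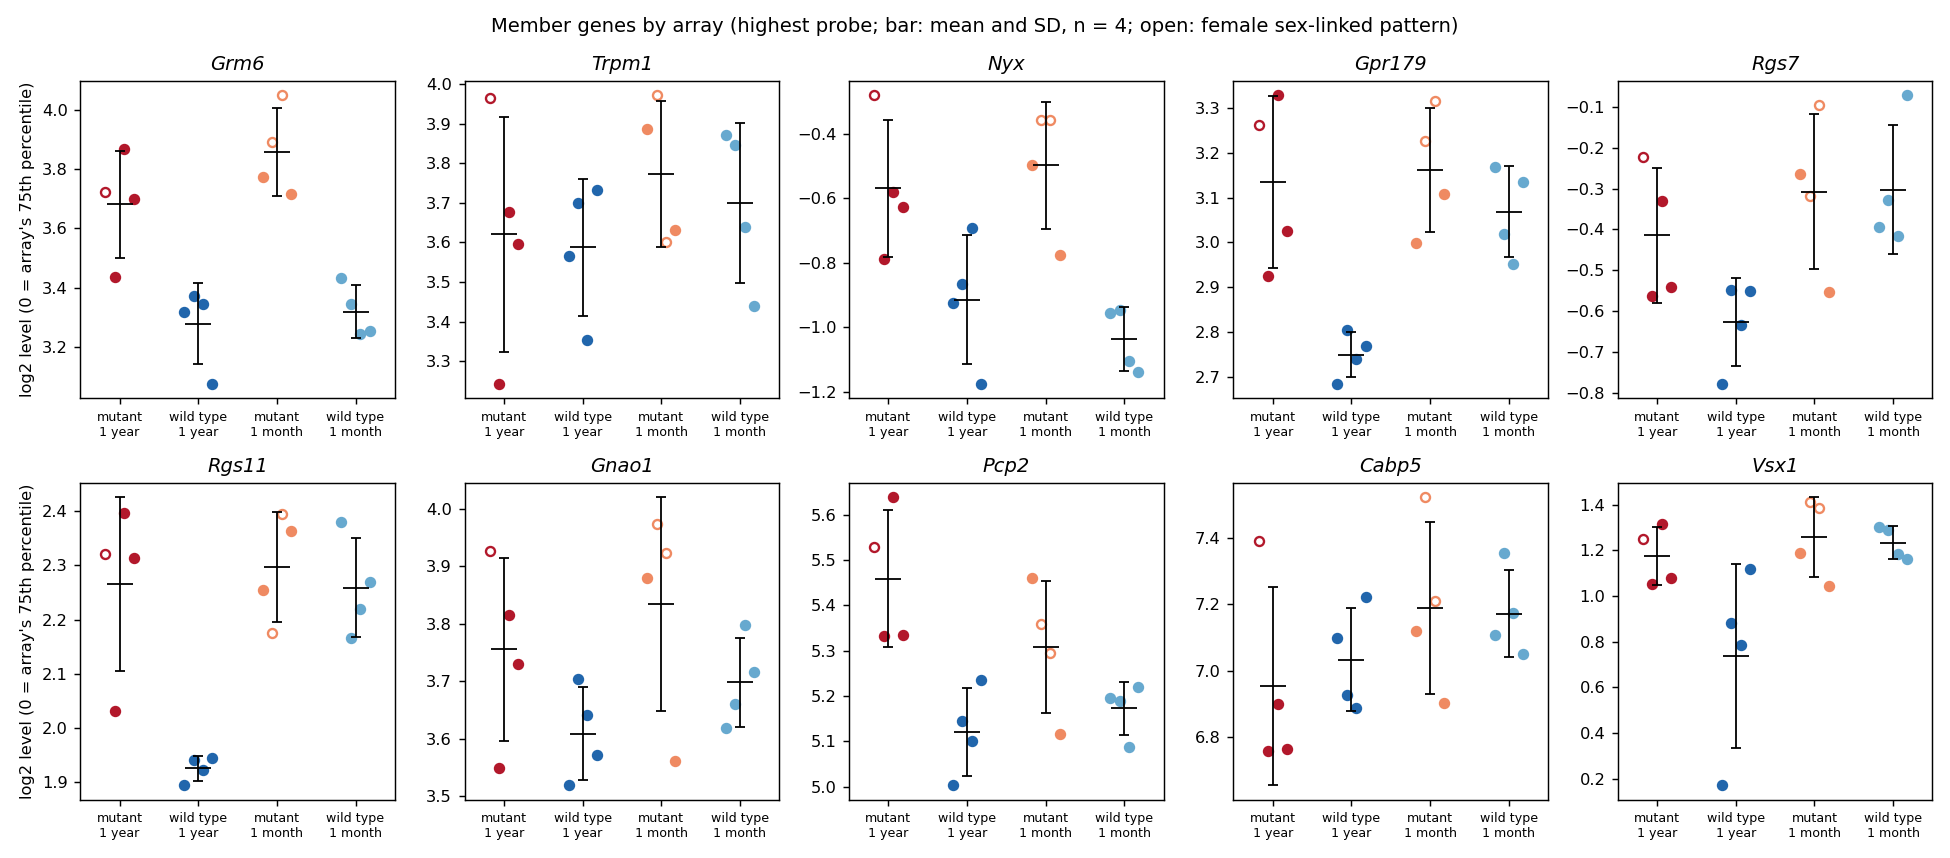
Log2 level of each of the 10 genes on each of the 16 arrays, by its brightest probe, with the group mean and SD (n = 4) as black bars and the 3 arrays of female pattern as open circles. Each panel has its own vertical scale, in log2 units relative to the array's 75th percentile. For Grm6 all 8 mutant arrays stand above all 8 wild-type arrays of both ages, while the Trpm1 and Cabp5 groups overlap. The lowest of these mutant arrays and the highest wild-type array both round to 3.43. The share of all genes with such a split is not given here.

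Grm6 encodes the postsynaptic glutamate receptor that begins the cascade. At 1 year its levels were 3.72, 3.43, 3.87 and 3.70 in mutants, against 3.32, 3.37, 3.35 and 3.08 in wild types. At 1 month they were 3.77, 3.89, 4.05 and 3.72 in mutants, against 3.43, 3.35, 3.24 and 3.25 in wild types. The lowest mutant array of either age, at 3.43, lay just above the highest wild-type array, also 3.43 when rounded. How many of all genes had every mutant array above every wild-type array of both ages is not given here. The log2 change was 0.54 ± 0.10 (SE, limma adjusted p = 0.0147, n = 4 each) at 1 month, which passed the threshold, and 0.40 ± 0.10 (adjusted p = 0.0931, n = 4 each) at 1 year, which did not. The change at 1 month passed with each of the 16 arrays left out in turn. Within each slide it was 0.41 on slide 1 and 0.66 on slide 2. The means ranked from 3.86 in 1-month mutants through 3.68 in 1-year mutants and 3.32 in 1-month wild types to 3.28 in 1-year wild types, and of these neighbours only 1-year mutants and 1-month wild types did not overlap. With the 2 arrays of female pattern left out, the other 1-month mutants, at 3.77 and 3.72, lay above all 4 wild types of that age. The share of all genes with such a split of 2 against 4 is not given here. Without the 3 arrays of female pattern the 1-month change of Grm6 did not pass (0.42, limma adjusted p = 0.23).

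Nyx encodes nyctalopin, a leucine-rich repeat protein of the dendritic tips that is needed to place TRPM1 there. At 1 month its levels were -0.50, -0.36, -0.36 and -0.78 in mutants, against -0.96, -0.95, -1.11 and -1.14 in wild types. The groups did not overlap, as those of 5.85% of all genes did not in this direction, and the highest pair of mutant arrays was the pair with the female pattern. The gene lies on the X chromosome. The log2 change of 0.54 ± 0.13 (SE, limma adjusted p = 0.0392, n = 4 each) lost its call in 11 of the 16 fits that left out 1 array, with changes of 0.49 to 0.57 and adjusted p of 0.0506 to 0.118. These were the fits without 1-month mutant replicate 1, 2 or 3, without 1-year mutant replicate 3 or 4, without any 1 of the 1-month wild types, and without 1-year wild-type replicate 1 or 2. At 1 year Nyx levels were -0.28, -0.79, -0.58 and -0.63 in mutants, against -0.93, -0.87, -0.69 and -1.17 in wild types. Mutant replicate 2 lay below wild-type replicate 3, and the change of 0.35 ± 0.13 did not pass (adjusted p = 0.287). Within slides it was 0.09 on slide 1 and 0.60 on slide 2 at 1 year, and 0.38 on slide 1 and 0.69 on slide 2 at 1 month.

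**Figure D2:**
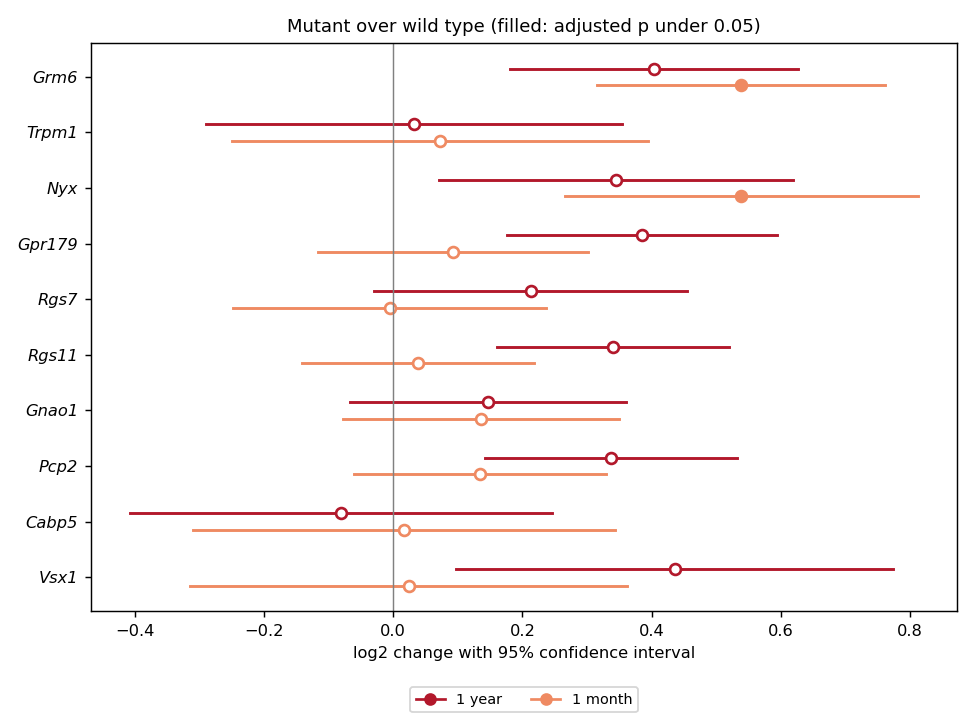
Log2 change of mutant over wild type for each gene at 1 year (dark, upper) and 1 month (light, lower), with 95% confidence intervals from the limma fit. Filled circles passed an adjusted p under 0.05, which were Grm6 and Nyx at 1 month. The 1-year intervals of Grm6, Nyx, Gpr179, Rgs11, Pcp2 and Vsx1 lie above 0 without reaching the adjusted threshold.

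Trpm1 encodes the cation channel at the end of the cascade, and the same gene was first described as melastatin in pigment cells. Its 3 probes did not show 1 pattern. The brightest, A_55_P2043782 (NM_001039104), read 3.96, 3.24, 3.68 and 3.60 in 1-year mutants, against 3.57, 3.70, 3.35 and 3.73 in 1-year wild types, and 3.89, 3.97, 3.60 and 3.63 in 1-month mutants, against 3.87, 3.85, 3.64 and 3.44 in 1-month wild types. All 4 groups overlapped, and the changes with genotype were 0.03 ± 0.15 (SE, adjusted p = 0.961) at 1 year and 0.07 ± 0.15 (adjusted p = 0.872) at 1 month. For this probe the 95% interval of the 1-month change ran from -0.25 to 0.39, so a change as large as the estimate for Grm6 lay outside it. In the fit of all probes, the interval was -0.03 to 0.50 for A_55_P2037997. For A_51_P338031 it was 0.44 to 1.65, which held a change of that size.

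The second probe of NM_001039104, A_55_P2037997, read 3.17, 2.65, 3.14 and 2.78 in 1-year mutants, against 2.58, 2.65, 2.52 and 2.59 in 1-year wild types. The mutant arrays lay above the wild-type arrays by a margin that vanishes in rounding, and the change of 0.35 ± 0.13 (SE) did not pass when all 49230 probes were fitted one by one (adjusted p = 0.407), a fit in which 0.396% of probes passed at this age. At 1 month its change was 0.23 ± 0.13 (adjusted p = 0.446).

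The probe of NM_018752, A_51_P338031, had the largest estimate of the 3 at 1 month. At that age it read 3.62, 2.63, 2.96 and 3.68 in mutants, against 1.48, 2.24, 2.62 and 2.37 in wild types, without overlap. At 1 year it read 2.38, 2.0, 2.70 and 3.01 in mutants, against 2.82, 2.56, 2.97 and 2.92 in wild types, with overlap. The change was 1.05 ± 0.28 (SE) at 1 month, which did not pass in the fit of all probes (adjusted p = 0.105, 1.08% of probes passing), and -0.29 ± 0.28 at 1 year (adjusted p = 0.843). These were 1.47 (adjusted p = 0.106) at 1 month and -0.25 (adjusted p = 0.922) at 1 year without the 3 arrays of female pattern. The effect at 1 year minus that at 1 month was -1.34 ± 0.40 (unadjusted p = 0.00447, adjusted p = 0.296), in a test that 0.0833% of probes passed. When the 3 probes were averaged, Trpm1 was called higher at 1 month, at 0.45 (limma adjusted p = 0.0471), in a fit where 535 of 19022 genes passed. None of the 3 probes passed singly at that age, with changes of 0.07, 0.23 and, for this probe, 1.05. The averaged value without the 3 arrays of female pattern is not given here.

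The 5 tested genes whose levels followed the NM_018752 probe most closely over the 16 arrays were Nid2, Pmel, Tyr, Bmp7 and Kcnj13, with Pearson r from 0.91 to 0.88, a description chosen after its values were seen. Pmel and Tyr are melanosome genes and Kcnj13 a potassium channel gene of the RPE. Of 8 melanin synthesis genes, a list also chosen after the values were seen, 5 were higher in mutants at 1 month (Tyr, Tyrp1, Pmel, Slc45a2 and Gpr143) and none lower, with a median of 0.68. Pmel alone of the 8 passed at 1 month without the 3 arrays of female pattern, and the list's median was then 0.81. At 1 year 0 of the 8 passed, 7 estimates were negative and the median was -0.52. All 8 were well above background on every array, and their mean level ran from 1.96 to 2.47 on 1-year mutant arrays, 2.47 to 2.98 on 1-year wild-type arrays, 2.33 to 2.94 on 1-month mutant arrays and 1.53 to 2.25 on 1-month wild-type arrays. Their part in the signal of this Trpm1 probe was not tested. The genes that followed the brightest Trpm1 probe were Pnma2, Cmya5, Ccdc172, Akap7 and Iqcf4, with r from 0.97 to 0.85, and no gene stood in both lists.

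**Figure D3:**
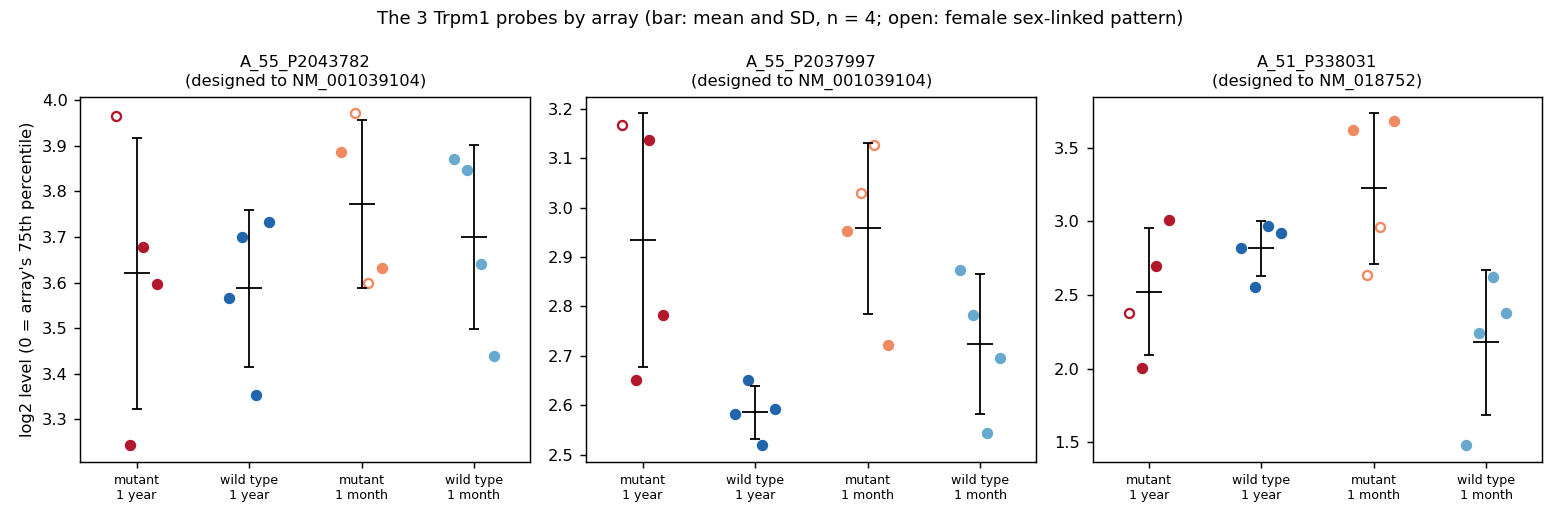
Log2 level of the 3 Trpm1 probes on each of the 16 arrays, with group mean and SD (n = 4) as black bars and arrays of female pattern as open circles. Each panel has its own scale, since levels of different probes cannot be compared. The NM_018752 probe, at right, is the one whose 1-month mutant arrays, between 2.63 and 3.68, all lie above the 1-month wild-type arrays, between 1.48 and 2.62.

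Gpr179 encodes an orphan receptor that tethers the RGS proteins near mGluR6. At 1 year its levels were 3.26, 2.92, 3.33 and 3.02 in mutants, against 2.69, 2.80, 2.74 and 2.77 in wild types. At 1 month they were 3.0, 3.23, 3.32 and 3.11 in mutants, against 3.17, 3.02, 2.95 and 3.14 in wild types. The 1-year wild types stood apart below the other 12 arrays, a split whose share over all genes is not given here. The change with genotype was 0.39 ± 0.10 (SE, adjusted p = 0.0853) at 1 year, without overlap, and 0.09 ± 0.10 (adjusted p = 0.712) at 1 month.

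Rgs7 and Rgs11 encode the GTPase-activating proteins that end the Go signal. Rgs11 levels at 1 year were 2.32, 2.03, 2.40 and 2.31 in mutants, against 1.89, 1.94, 1.92 and 1.94 in wild types. At 1 month they were 2.25, 2.18, 2.40 and 2.36 in mutants, against 2.38, 2.17, 2.22 and 2.27 in wild types. As for Gpr179, the 1-year wild types were the low group, and the change with genotype was 0.34 ± 0.08 (SE, adjusted p = 0.08) at 1 year and 0.04 ± 0.08 (adjusted p = 0.881) at 1 month. Rgs7 ran from -0.56 to -0.22 in 1-year mutants, from -0.78 to -0.55 in 1-year wild types, from -0.55 to -0.10 in 1-month mutants and from -0.42 to -0.07 in 1-month wild types. Its groups overlapped at both ages, with changes of 0.21 ± 0.11 (adjusted p = 0.52) at 1 year and -0.01 ± 0.11 (adjusted p = 0.99) at 1 month.

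Gnao1 encodes the alpha subunit of Go, which many retinal neurons share. By its brightest probe (NM_010308) the changes with genotype were 0.15 ± 0.10 (SE, adjusted p = 0.649) at 1 year and 0.14 ± 0.10 (adjusted p = 0.569) at 1 month, with levels between 3.52 and 3.97 over all 16 arrays. The probe of NM_001113384 gave -0.09 ± 0.16 at 1 year and 0.02 ± 0.16 at 1 month. Neither probe separated the groups at either age.

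Pcp2, a modulator of Go family proteins found in rod bipolar and some cone bipolar cells, read 5.53, 5.33, 5.64 and 5.33 in 1-year mutants, against 5.0, 5.15, 5.10 and 5.24 in 1-year wild types. The groups did not overlap, and the change of 0.34 ± 0.09 (SE) missed the threshold (adjusted p = 0.11). At 1 month its change was 0.14 ± 0.09 (adjusted p = 0.523), with overlap. Cabp5, a calcium-binding protein of rod bipolar and some cone bipolar cells, gave -0.08 ± 0.15 (adjusted p = 0.888) at 1 year and 0.02 ± 0.15 (adjusted p = 0.974) at 1 month by its brighter probe. Its dimmer probe gave 0.30 ± 0.15 at 1 year and 0.06 ± 0.15 at 1 month, so at 1 year its probes differed in sign, with overlapping groups in both.

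Vsx1, a homeobox factor of cone bipolar cells that is better known for OFF than for ON types, read 1.25, 1.05, 1.31 and 1.08 in 1-year mutants, against 0.17, 0.88, 0.78 and 1.12 in 1-year wild types. Wild-type replicate 1 was far below the rest of its group, and replicate 4 lay within the mutant range. The change was 0.44 ± 0.16 (SE, adjusted p = 0.272) at 1 year and 0.02 ± 0.16 (adjusted p = 0.964) at 1 month.

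No member passed the test of the difference between the genotype effects at 1 year and 1 month, a test that 0.421% of all genes passed in limma. In it 1 of the 10 members, Rgs11, had an unadjusted p under 0.05, as had 10.8% of all genes. The estimates, 1 year minus 1 month, ran from -0.19 for Nyx to 0.41 for Vsx1. For Rgs11 it was 0.30 ± 0.12 (SE, adjusted p = 0.35) and for Gpr179 0.29 ± 0.14 (adjusted p = 0.469). The call for Grm6 and Nyx at 1 month and its absence at 1 year were thus not shown to differ, with estimates of -0.14 ± 0.15 and -0.19 ± 0.18.

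With age, Gpr179 and Rgs11 were lower in wild types at 1 year than at 1 month, and no member was higher. The 1-year level was 0.79-fold the 1-month level for Rgs11 and 0.80-fold for Gpr179: the log2 change was -0.33 ± 0.08 (SE, limma adjusted p = 0.0176, n = 4 each) for Rgs11 and -0.32 ± 0.10 (adjusted p = 0.0459) for Gpr179. Of all genes, 12.4% passed in this comparison and 5.05% passed as lower. For 4 members, Gpr179, Rgs7, Rgs11 and Vsx1, every 1-year wild-type array lay below every 1-month wild-type array, as it did for 9.71% of all genes. Vsx1, at -0.50 ± 0.16 (adjusted p = 0.055), and Rgs7, at -0.32 ± 0.11 (adjusted p = 0.0779), missed the threshold. Grm6, at -0.04 ± 0.10, and Nyx, at 0.12 ± 0.13, did not pass either.

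These calls depended on single arrays. Rgs11 was lost without wild-type replicate 1 of 1 month (adjusted p = 0.0554) or of 1 year (adjusted p = 0.0536). Gpr179 was lost in 10 of 16 fits, with adjusted p from 0.0501 to 0.125: those without any 1 of the 1-year wild types, without 1-month wild-type replicate 1, 2 or 4, without 1-year mutant replicate 1 or 4, and without 1-month mutant replicate 2. Vsx1 passed without 1-year wild-type replicate 4 (-0.62, adjusted p = 0.0178), and both Vsx1 (adjusted p = 0.0486) and Rgs7 (adjusted p = 0.0484) passed without 1-month mutant replicate 4. Vsx1 also passed with normexp background correction (adjusted p = 0.0437), quantile normalization (adjusted p = 0.0463) and the authors' deposited log2 matrix (adjusted p = 0.0463), and with that matrix Gpr179 did not (adjusted p = 0.0542).

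In mutants, 0 of the 10 members passed between 1 year and 1 month in limma, where 6.7% of all genes did. None had an unadjusted p under 0.05, which 21% of all genes had. The estimates ran from -0.24 for Cabp5 to 0.15 for Pcp2, and their median was -0.08 against -0.05 over all genes. Of the 10 estimates 9 were negative and 1 was positive, where 40.2% of all genes were positive. Gpr179, at -0.03 ± 0.10 (SE), and Rgs11, at -0.03 ± 0.08, were near 0 here.

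**Figure D4:**
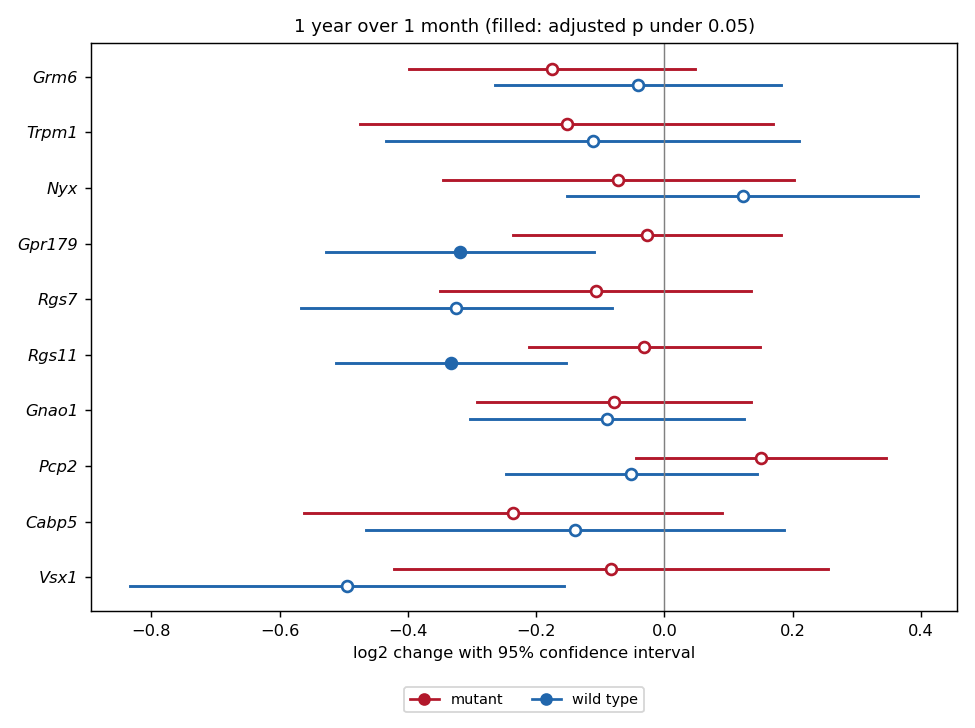
Log2 change of 1 year over 1 month for each gene in mutants (red, upper) and wild types (blue, lower), with 95% confidence intervals from the limma fit. Filled circles passed an adjusted p under 0.05, which were Gpr179 and Rgs11 in wild types, while the mutant intervals all include 0.

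The 10 genes varied together from array to array. Over the 45 pairs of members, the median Pearson r of the levels on the 16 arrays was 0.51, and after each group's mean was removed it was 0.44, with 44 of 45 pairs above 0. These points share their arrays and the scaling of each array, so the values are a description. The median deviation of the members from their own means was 0.28 on 1-month mutant replicate 2, 0.25 on 1-month mutant replicate 3 and 0.22 on 1-year mutant replicate 1, the 3 arrays of female pattern. On mutant arrays of male pattern it was 0.19, 0.00 and -0.13 at 1 year (replicates 3, 4 and 2) and 0.15 and -0.05 at 1 month (replicates 1 and 4). It was between -0.24 and -0.15 on the 1-year wild types. On the 1-month wild types it lay between -0.02 and 0.02. The mean deviation of the 10 rod genes on 1-month mutant replicates 1 to 4 was 0.21, 0.18, 0.25 and -0.11, beside 0.15, 0.28, 0.25 and -0.05 for the members. Whether the shared variation is particular to the members was not tested. On the 1-year mutants it was -0.11, -0.23, -0.14 and -0.30, beside 0.22, -0.13, 0.19 and 0.00 for the members.

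**Figure D5:**
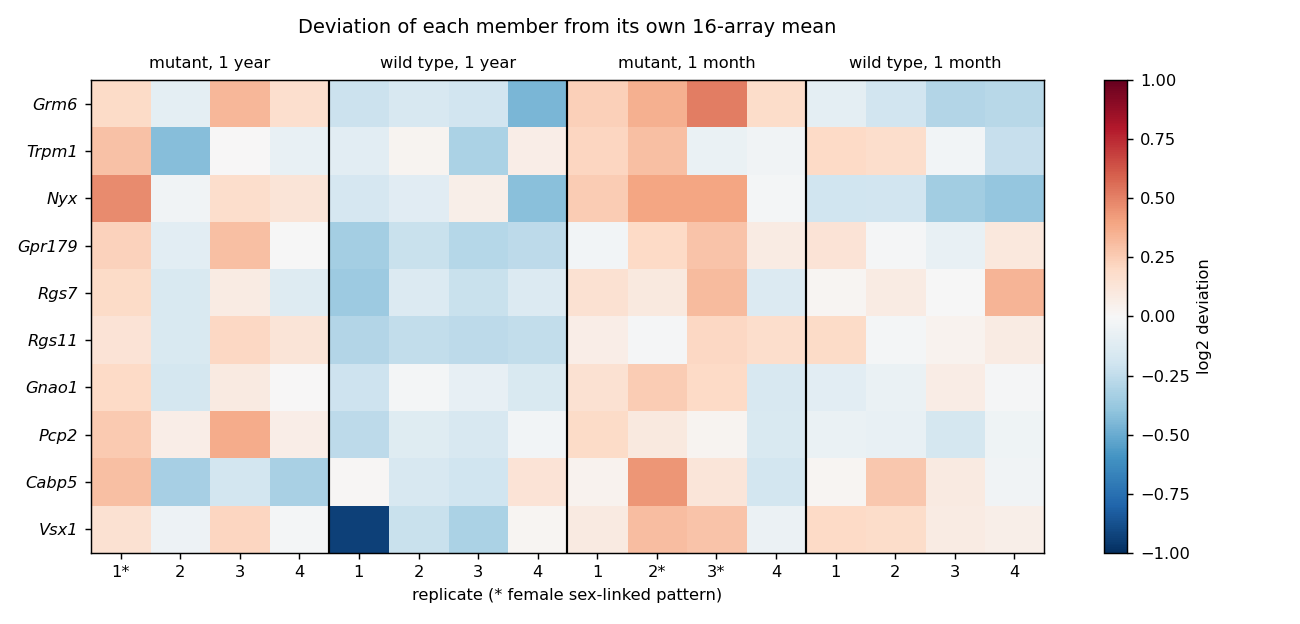
Deviation of each gene from its own mean over the 16 arrays, in log2 units (red above, blue below), with columns for the replicates of each group and an asterisk for arrays of female pattern. The 1-year wild-type columns are mostly blue, and the largest single deviation is that of Vsx1 on 1-year wild-type replicate 1, at -0.93.

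Of 9 further genes of the pathway, 7 were tested, and all 7 were well above background on every array. Elfn1 did not pass the signal filter, and Lrit3 was not analysed here. At 1 year 1 of the 7 was higher in mutants and none lower, and at 1 month 0 of the 7 passed. At 1 month Gnb5, with a negative estimate, and Dag1 and Gnb3, with positive ones, had an unadjusted p under 0.05, as had 15.2% of all genes. The gene that passed was Gnb3, the beta subunit paired with Go in ON-bipolar cells and with transducin in cones. It read 4.32, 4.08, 4.39 and 3.81 in 1-year mutants, against 3.49, 3.32, 3.26 and 3.63 in 1-year wild types, without overlap. Its change was 0.73 ± 0.14 (SE, adjusted p = 0.021) at 1 year and 0.30 ± 0.14 (adjusted p = 0.313) at 1 month, and the difference of these was not called (0.42 ± 0.19, adjusted p = 0.451). When the 3 arrays of female pattern were left out, 0 of the 7 passed at either age, and Gnb3 was at 0.67 (adjusted p = 0.12) at 1 year and 0.19 at 1 month.

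Gng13, the gamma subunit that pairs with Gnb3, had changes of 0.30 ± 0.12 (SE, adjusted p = 0.318) at 1 year and 0.05 ± 0.12 at 1 month. Gnb5, the beta subunit that stabilises the RGS proteins, had -0.30 ± 0.14 (adjusted p = 0.454) at 1 year and -0.42 ± 0.14 (adjusted p = 0.171) at 1 month. Rgs9bp, the RGS anchor of photoreceptors, had -0.25 ± 0.12 at 1 year and 0.06 ± 0.12 at 1 month. Prkca, the kinase used to mark rod bipolar cells, had -0.07 ± 0.12 at 1 year and -0.19 ± 0.12 at 1 month. Egflam, which encodes the synaptic matrix protein pikachurin, had -0.40 ± 0.12 (adjusted p = 0.166) at 1 year and 0.11 ± 0.12 at 1 month, and its receptor gene Dag1 had 0.06 ± 0.10 and 0.23 ± 0.10. With age, Egflam was lower in mutants at 1 year than at 1 month by a log2 change of -0.43 ± 0.12 (adjusted p = 0.0484), which without the 3 arrays was -0.32 (adjusted p = 0.485), and in wild types its change was 0.08 ± 0.12.

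Among 8 genes of bipolar cell identity 0 passed between genotypes at either age, with median changes of 0.20 at 1 year and 0.09 at 1 month. Otx2 had -0.02 ± 0.10 (SE) at 1 year and 0.08 ± 0.10 at 1 month. Of 7 OFF-bipolar genes 1 was higher in mutants at 1 year, Lhx3 at 0.43 ± 0.08 (adjusted p = 0.0224), and 0 passed at 1 month. All 7 estimates were positive at 1 year, with a median of 0.25, against 0.04 at 1 month. Without the 3 arrays of female pattern 0 of these 15 genes passed at either age, Lhx3 was at 0.41 (adjusted p = 0.157) at 1 year, and the medians at 1 month were -0.06 for both lists. Grik1 had 0.23 ± 0.13 at 1 year and -0.04 ± 0.13 at 1 month, and Neto1 had 0.40 ± 0.13 and -0.09 ± 0.13. In wild types, 2 of these 7 (Grik1 and Lhx3) and 2 of the 8 identity genes were lower at 1 year than at 1 month. The difference between these lists and the members was not tested.

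Markers of neighbouring cells were measured beside the members. Of 6 amacrine genes 0 passed at either age, with medians of 0.19 at 1 year and -0.01 at 1 month (Gad1 0.18 and -0.02, Slc6a9 0.20 and 0.07). Of 6 ganglion cell genes 0 passed, with medians of -0.14 and -0.02 (Rbpms -0.15 and -0.13, Sncg -0.11 and -0.05). Of the 10 rod genes 0 passed at 1 month, with a median of 0.11. Of 6 Müller glia genes Crym was higher at 1 year (0.91) and Rlbp1 (0.58) and Abca8a (0.57) at 1 month, while Glul had -0.09 and 0.07 and Slc1a3 0.31 and 0.25. Of 5 microglia genes Cx3cr1 was higher at 1 year (0.89) and Aif1 (1.03) and Csf1r (0.73) at 1 month.

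Of 5 RPE genes tested, all well above background on every array, 0 passed at 1 year and Ttr (0.72) and Slc16a8 (0.80) were higher at 1 month, while Rpe65 had -0.66 and -0.18 and Lrat -0.48 and 0.02. Of 5 choroid and fibroblast genes 0 passed at 1 year and Col3a1 (2.35) and Lum (1.17) were higher at 1 month, with Col1a1 at 0.05 and 1.2. Of 5 lens genes 0 passed at either age, but their mean level was very uneven, between -0.44 and 6.21 on 1-year mutant arrays, -3.26 and 2.61 on 1-year wild-type arrays, 1.98 and 6.80 on 1-month mutant arrays and 5.24 and 5.85 on 1-month wild-type arrays (Cryaa changed by 1.82 ± 1.64 and -1.17 ± 1.64, Crygs by 1.84 ± 1.5 and -0.90 ± 1.5). Without the 3 arrays of female pattern, Crym alone of all these neighbouring-cell lists passed at 1 year, and Aif1, Csf1r and Col3a1 at 1 month. The part of these tissues in the members' changes was not tested.

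Grm6 and Gpr179 lie on chromosome 11, which held 7.92% of the genes tested, 22.1% of those called between genotypes at 1 year and 13.9% of those called at 1 month. Nyx lies on the X chromosome, which held 3.75% of the genes tested and 5.02% of those called at 1 month, 25 of 26 of them higher in mutants, while at 1 year it held 0.613% of the calls. The 3 arrays of female pattern are all mutants, 2 of them at 1 month, and without them X held 2 of 133 calls at 1 month and 0 of 78 at 1 year, and chromosome 11 held 25.6% at 1 year and 24.8% at 1 month. The 5 genes whose levels followed Grm6 most closely over the 16 arrays were Ndn, Kcnh6, Trim67, Cuedc1 and Klhdc4, all with Pearson r of 0.88, of which Kcnh6 and Cuedc1 also lie on chromosome 11. Cuedc1 was the one with the largest genotype estimates among these 5, 2.17 at 1 year and 1.99 at 1 month. Within groups the correlation with Grm6 ranged from 0.21 for Cuedc1 to 0.72 for Trim67. The part of chromosomal position in the members' changes was not tested.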

How the data were processed

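Total RNA of retina and RPE was labelled with Cy3 and hybridised to 16 one-colour Agilent arrays, per the labels. The deposited scanner files hold the intensity of each spot, per the file headers already corrected for background, and the submitters' processing notes name Agilent Feature Extraction 11.0.1.1. The deposited matrix holds log2 values with 1 common distribution in all columns, and its software is not given in the sources used here. Here log2 intensity minus the array's 75th percentile was used, spots of a probe were averaged, and a probe was kept if 4 or more of the 16 arrays had it well above background. The probe with the highest mean stood for each of 19022 genes.

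Contrasts of 4 group means were fitted in limma 3.58.1 (R 4.3.3) and adjusted over all genes (Benjamini-Hochberg, 0.05, two-sided). The script was tested on simulated data. The normexp alternative used the median spot signal (offset 50), since the mean signal planned for it was not in the columns used. Members, lists and tests were chosen with earlier results of these data known. Named genes were all members and pathway genes, the first 2 of each other list and any called between genotypes, and the 5 genes most like Grm6 and Trpm1, and values of some of these single genes are not reported here. Slide, replicate-number, sex-pattern and leave-one-out alternatives were run. Same-numbered samples of different groups did not deviate together (median r -0.01, 5 of 24 pairs over 0.1), so the numbers were not used as pairs. Promoters came from RefSeq (GRCm38.p6).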

Additional observations from a re-analysis of the deposited data

How the results depend on the processing

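No log2 change of a called member reversed its sign under any alternative run. Sign changes occurred in 74 of 1590 member values, all uncalled, none larger than 0.21. For the mutant against wild type at 1 month, against 2 members called, 1 was called with normexp background correction, median centring, the fit of all probes or array row as a covariate, each time Grm6. There 0 were called on slide 1 or slide 2 alone, without the 3 arrays of female pattern, with that pattern as a covariate, or with only the 2 groups in the fit (Grm6 adjusted p = 0.053). Fits that left out 1 array called 1 to 2. For 1 year against 1 month in wild types, against 2 called, 1 was called without a filter on dim probes, in the fit of all probes, with slide as a block, with array row, or without the 3 arrays, each time Rgs11, and 0 with median centring or on slide 1 or slide 2 alone. Fits that left out 1 array called 0 to 4. They called 0 to 2 for the mutant against wild type at 1 year, 0 for the difference of these effects and 0 for age in mutants. With the replicate number as a block, the count for age in wild types was 1, Rgs11, and the block changed no other count. On slide 2 all mutant arrays lay in row 2 and all wild-type arrays in row 1. Under the other alternatives run, the counts stayed within 1.5 times the reported ones, though not always with the same genes: with age in wild types, Vsx1 passed with normexp and quantile normalization, and took the place of Gpr179 with the authors' matrix. Each single slide left 2 arrays a group. The causes of these moves were not tested. Of all calls with age, 77.5% in wild types and 80.8% in mutants were higher at 1 year with median centring, against 59.1% and 56.3% in the reported fit, and for the difference of genotype effects the share was 52.4% against 33.8%.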
